A study of Rattus norvegicus with 6 samples.

Results

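Insulin and the insulin-like growth factors act through a short chain of proteins, and 10 genes of that chain are described here: the receptors Insr and Igf1r, the adaptors Irs1 and Irs2, the phosphatidylinositol 3-kinase (PI3K) regulatory subunits Pik3r1 and Pik3r3, the kinases Akt1 and Akt2, and the transcription factors Foxo1 and Foxo3. They were chosen by name, and all 10 were found among the 19289 features listed. Messenger RNA was sequenced from INS-1E, a line of insulin-secreting cells derived from a rat insulinoma. The 6 libraries form 2 groups: 3 of cells left untreated and 3 of cells given uric acid over 24 hours. No genetic change or other agent is named for either group, and the labels state neither a dose of uric acid nor a vehicle. The labels do not say whether the replicates of a group came from separate cultures, so each p-value reflects the spread among these 6 libraries and no more. In bulk RNA, fewer cells with a transcript and less of it per cell cannot be told apart.

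An activated receptor phosphorylates IRS adaptors, which recruit PI3K through its regulatory subunits. The lipid made by PI3K brings AKT to the membrane, and AKT phosphorylates FOXO factors so that they leave the nucleus. When signalling is low, FOXO factors return and switch on genes of cell-cycle arrest, autophagy, stress resistance and, in a feedback, the receptor and IRS genes. In beta cells this chain supports growth and survival, and Irs2 is the adaptor best known for that. All of these steps are changes of protein state, which messenger RNA levels do not measure.

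Estimated counts summed to between 41191819 and 59092982 per library, where a full read pair adds up to 4. All 12 beta-cell markers with a row, among them Ins1, Ins2 and Pdx1, had a mean level of at least 1 FPKM (fragments scaled to the length of the transcript and to the total of the library). Of 11 markers of other islet and pancreas cells with a row, 9 lay below 1 FPKM and none was at 0 in every library. The exceptions were Gcg, the glucagon gene, at 5.46 to 10.6 FPKM, and Krt7, a keratin of ducts, at 170 to 192 FPKM. The 11 summed to 197 to 204 FPKM in untreated and 182 to 193 FPKM in uric acid libraries, a gap carried by Krt7, and its part in the results was not tested.

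Of the 10 genes, 8 reached a mean of 1 FPKM and were tested, and 1 of these passed the threshold of an adjusted p under 0.05: Pik3r3, which fell. None rose. Over all 12460 tested features 7.98% passed in either direction, 4.99% higher and 2.99% lower, and 1 of 8 is close to that background in a set this small. Without adjustment, a p under 0.05 was reached by 1 gene of the 8 in the higher and 2 in the lower direction, against 13.7 and 12.0% of all tested features. The median log2 fold change of the 8 was -0.11, against 0.00 over all tested features. The FPKM of the groups did not overlap for 4 of the 8, higher with uric acid for Irs2 and lower for Pik3r1, Pik3r3 and Akt1, where 31.0% of all tested features were apart.

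**Figure D1:**
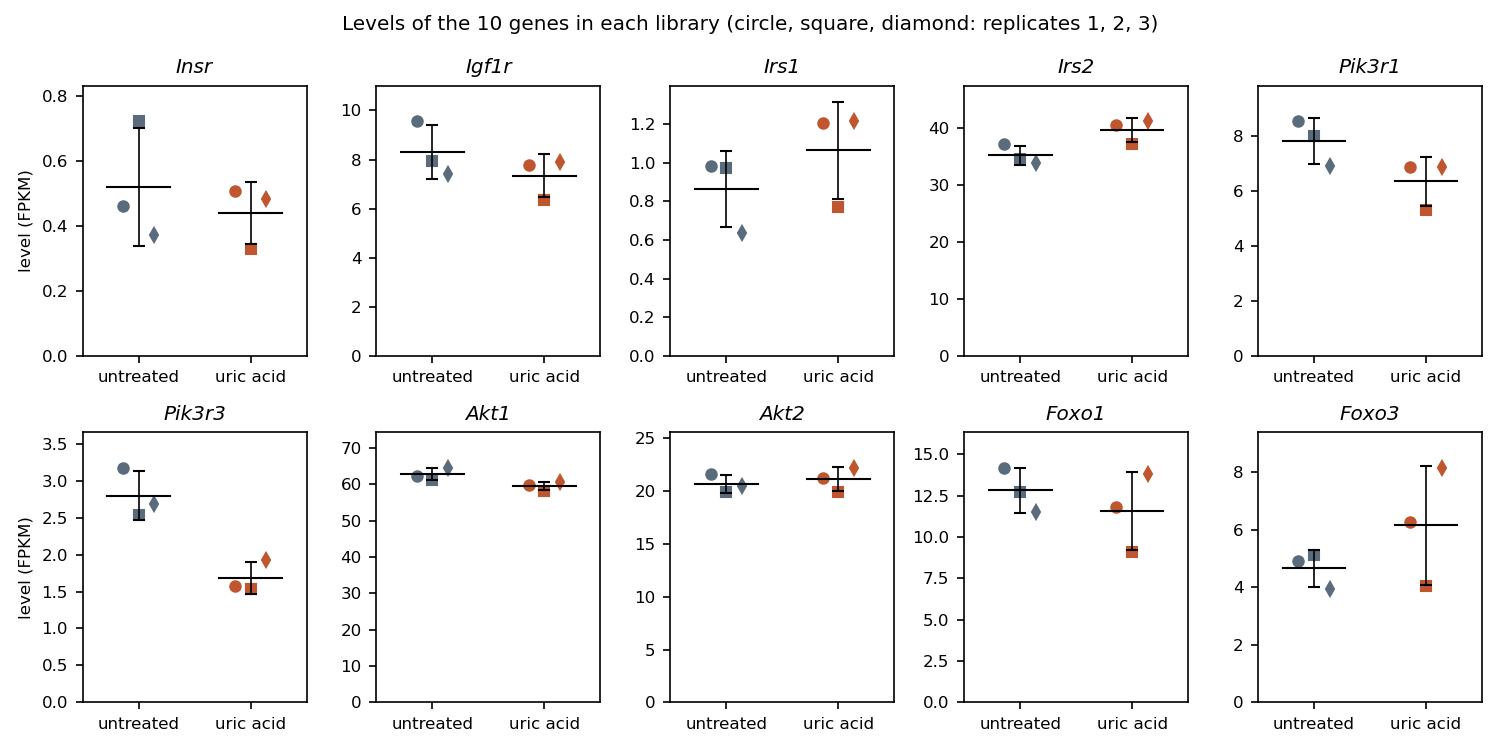
Level of each gene in FPKM (vertical axes, each from 0 with its own scale) in 3 untreated (grey) and 3 uric acid (orange) libraries, with the mean (line) and SD (bar) of each group. Pik3r3 lies at 1.53 to 1.93 FPKM in the uric acid libraries and at 2.53 to 3.18 FPKM in the untreated ones, while the groups overlap for Insr, Igf1r, Irs1, Akt2, Foxo1 and Foxo3.

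Sequences upstream of 3 genes are shown because the results below return to them: Pik3r3, the tested gene that fell, Insr, the receptor gene whose transcription FOXO is known to drive, and Bcl2l11, a FOXO target that rose. Each is the 250 bases before the gene's annotated start, from RefSeq on build GRCr8, written 5' to 3' in the direction of the gene. Capitals mark the FOXO core motif GTAAACA or its reverse complement TGTTTAC. The Pik3r3 stretch is chr5:134938356-134938605 on the plus strand, that of Insr chr12:6128804-6129053 on the minus strand and that of Bcl2l11 chr3:135819792-135820041 on the plus strand.
Pik3r3: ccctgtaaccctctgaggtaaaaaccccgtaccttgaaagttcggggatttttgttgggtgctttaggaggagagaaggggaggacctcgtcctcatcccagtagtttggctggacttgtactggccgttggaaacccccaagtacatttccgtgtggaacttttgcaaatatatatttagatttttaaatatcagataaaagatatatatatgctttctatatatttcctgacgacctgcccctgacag
Insr: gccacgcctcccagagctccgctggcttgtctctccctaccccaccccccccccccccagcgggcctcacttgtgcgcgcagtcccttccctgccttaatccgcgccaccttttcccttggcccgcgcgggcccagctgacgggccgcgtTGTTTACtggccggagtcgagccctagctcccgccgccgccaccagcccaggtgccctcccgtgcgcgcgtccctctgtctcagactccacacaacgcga
Bcl2l11: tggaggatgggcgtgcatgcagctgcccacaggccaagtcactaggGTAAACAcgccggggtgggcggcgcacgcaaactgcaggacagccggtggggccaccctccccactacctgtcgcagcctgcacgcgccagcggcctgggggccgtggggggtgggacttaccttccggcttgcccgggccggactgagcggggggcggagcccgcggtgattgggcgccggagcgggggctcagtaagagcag

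The Insr stretch holds the motif on the opposite strand with its first base 100 bases before the start, and the Bcl2l11 stretch holds it on the same strand at 204 bases. No match lies in the Pik3r3 stretch, which has 43.2% G and C against 71.2% for Insr and 72% for Bcl2l11. Both strands were searched for this motif alone, and 3.21% of 33469 promoter windows of that length held a match. Of the 10 genes 8 had a single promoter entry, and Insr was the 1 with a match. The 3.21% counts every window, while named genes were read only where they had a single entry. A match describes letters only, and occupancy by FOXO was not measured.

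The receptors differed widely in level. Igf1r (ENSRNOG00000014187), which encodes the IGF1 receptor, stood at 9.56, 7.93 and 7.42 FPKM in untreated replicates 1, 2 and 3 and at 7.79, 6.34 and 7.88 FPKM in uric acid replicates 1, 2 and 3. Uric acid library 2 was the lowest and untreated library 1 the highest, and the groups overlapped. The log2 fold change was -0.18 ± 0.12 (SE; 95% interval -0.45 to 0.09), with an edgeR quasi-likelihood adjusted p of 0.376. Insr (ENSRNOG00000029986), the insulin receptor gene, stood at only 0.46, 0.722 and 0.373 FPKM untreated and 0.507, 0.329 and 0.482 FPKM with uric acid. Its counts were 115 to 321 per library, about 29 to 80 read pairs at 4 counts a pair. Per length, Igf1r was 11 to 20.8 times the level of Insr within each library, and 23.7% of protein-coding features had a lower mean level than Insr. Insr lay below the filter. In the fit without that filter, where 3.81% of 19289 features were called, its log2 fold change was -0.24 ± 0.27 (edgeR adjusted p = 0.659). Its spread is wide enough that a moderate change in either direction could have been missed.

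Insrr, an orphan receptor of the same family, took 15.8 ± 0.832% of the summed FPKM of Insr, Igf1r and Insrr in untreated and 18.6 ± 1.55% in uric acid libraries (mean ± SD, n = 3 per group). Igf1r took 79.2 ± 2.51% and 76.9 ± 1.73%, and Insr the rest, at 4.96 ± 1.72% and 4.56 ± 0.471%.

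Irs2 was by far the more abundant of the 2 IRS adaptors. Irs2 (ENSRNOG00000023509) stood at 37.1, 34.5 and 33.8 FPKM in the untreated libraries and at 40.5, 37.2 and 41.2 FPKM in the uric acid libraries. The groups did not overlap, but the lowest uric acid library and the highest untreated library were only 0.106 FPKM apart. The log2 fold change was 0.17 ± 0.07 (95% interval 0.02 to 0.32), which did not pass the threshold in edgeR (adjusted p = 0.143). Its transcript is in the longest 20% of tested features by count over FPKM, where the median log2 deviation from the mean of the 6 libraries was 0.09 in untreated library 1 and -0.11 in uric acid library 2. Centring the libraries within 5 bins of length, an alternative chosen after the data were seen, gave Irs2 0.20 (edgeR adjusted p = 0.0323). Igf1r and Pik3r1 are in the same bin and did not pass with the centring. That setting called 1460 of all 12460 tested features, against 994 in the main fit.

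Irs1 (ENSRNOG00000014597), the other widely used adaptor, stood at 0.982, 0.972 and 0.637 FPKM untreated and 1.2, 0.772 and 1.21 FPKM with uric acid. Its mean of 0.964 FPKM lay just below the filter. Without the filter its log2 fold change was 0.30 ± 0.23 (edgeR adjusted p = 0.508), and the groups overlapped. Irs2 held 97.1 to 98.2% of the summed FPKM of Irs1 and Irs2 in every library, 33.7 to 53.1 times the level of Irs1.

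The change that passed was in a PI3K regulatory subunit. Pik3r3 (ENSRNOG00000000145, chromosome 5 from 135074297 to 135142488 on the plus strand, in a build that the sources used here do not name) encodes p55-gamma, a short regulatory subunit. It stood at 3.18, 2.53 and 2.69 FPKM in the untreated libraries and at 1.58, 1.53 and 1.93 FPKM with uric acid. All 3 uric acid libraries lay below all 3 untreated libraries. Pik3r3 fell by 39.9%, a log2 fold change of -0.73 ± 0.17 (95% interval -1.13 to -0.34; edgeR adjusted p = 0.0359). Its counts were 158 to 469 per library, about 40 to 117 read pairs. The call did not survive the loss of most single libraries. Leaving out untreated library 1, 2 or 3 gave an adjusted p of 0.128, 0.0953 or 0.0789, and leaving out uric acid library 1 or 2 gave 0.127 or 0.0738. Leaving out uric acid library 3 gave 0.0312. The sign was negative in all of these fits, with values of -0.84 to -0.64.

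Pik3r1 (ENSRNOG00000018903) encodes p85-alpha, the most studied regulatory subunit, and its shorter forms. It stood at 8.52, 7.98 and 6.89 FPKM untreated and at 6.86, 5.3 and 6.85 FPKM with uric acid. The groups were apart by a margin smaller than the spread within either, and the log2 fold change of -0.30 ± 0.12 did not pass (95% interval -0.57 to -0.03; edgeR adjusted p = 0.158). Pik3r2, which encodes p85-beta, was the most abundant of the 3 subunits at 35.3 ± 0.78 and 36.7 ± 0.981 FPKM, with a log2 fold change of 0.05 (adjusted p = 0.614). Pik3r3 was the smallest part of the family, 6.08 ± 0.524% of its summed FPKM in untreated and 3.75 ± 0.342% in uric acid libraries. The sum itself was 45.9 ± 1.54 and 44.7 ± 1.63 FPKM, with overlapping groups.

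Genes whose libraries ran most like those of Pik3r3 were sought among 10302 tested protein-coding genes with a settled symbol, by the root-mean-square difference of centred log2 counts, scaled to library totals, over the 6 libraries. The nearest were Efna3, which encodes an ephrin ligand (0.083), Atp8b2, a lipid flippase gene (0.0842), and Evpl, which encodes envoplakin (0.0858).

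**Figure D2:**
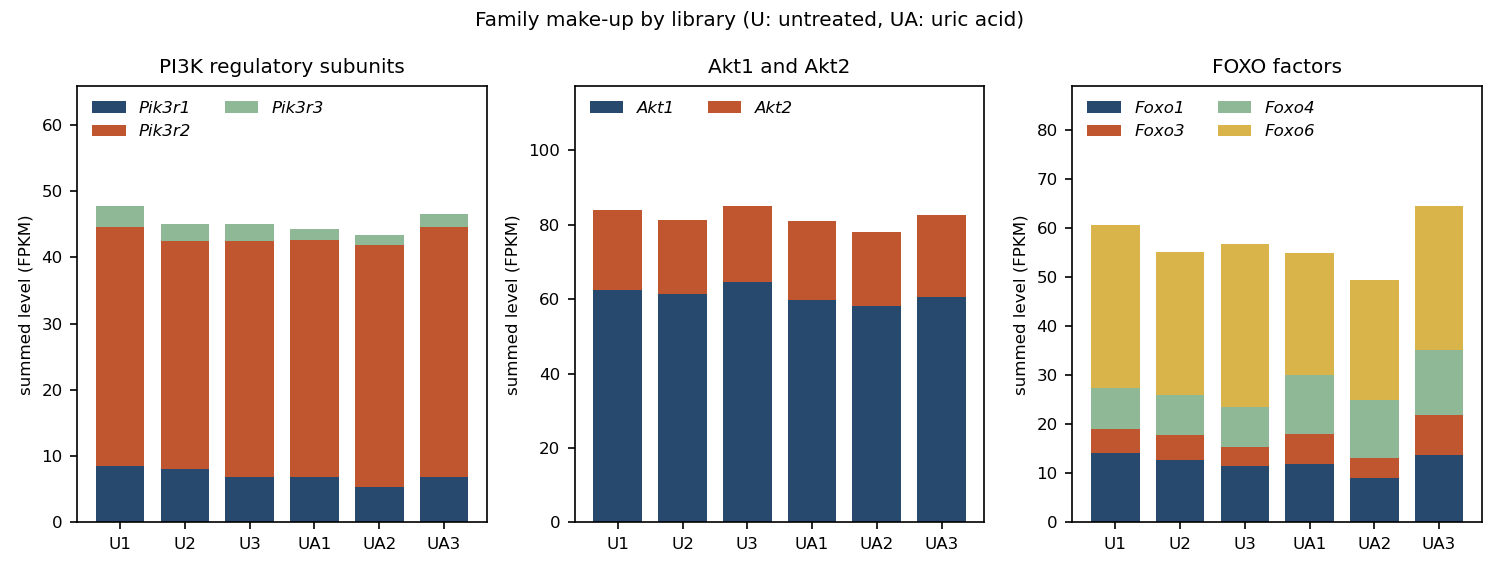
Summed level in FPKM (vertical axes) of the PI3K regulatory subunits, of Akt1 with Akt2 and of the FOXO family in untreated (U1 to U3) and uric acid (UA1 to UA3) libraries, coloured by gene. Pik3r3 shrinks from 6.08 to 3.75% of its family on average and Foxo4 grows from 14.2 to 22.1% of its own, while Akt1 holds 75.2 and 73.9% of the sum of Akt1 and Akt2 in the untreated and uric acid groups.

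Akt1 and Akt2 each differed little between the groups. Akt1 (ENSRNOG00000028629), the family member tied mainly to growth and survival, was the most abundant of the 10 genes, at 62.4, 61.3 and 64.5 FPKM untreated and 59.8, 58.2 and 60.5 FPKM with uric acid. The groups did not overlap, yet the log2 fold change was only -0.08 ± 0.06 (95% interval -0.21 to 0.06; edgeR adjusted p = 0.454). Akt2 (ENSRNOG00000018677), the form tied mainly to glucose handling, stood at 21.6, 19.9 and 20.4 FPKM untreated and 21.2, 19.9 and 22.2 FPKM with uric acid, with overlapping groups. Its log2 fold change was 0.03 ± 0.08 (95% interval -0.15 to 0.20; adjusted p = 0.854 in edgeR). These intervals are the narrowest of the 8 beside that of Irs2. Akt1 was 2.73 to 3.16 times the level of Akt2 within each library.

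Neither FOXO gene among the 10 passed. Foxo1 (ENSRNOG00000013397), the main FOXO factor studied in beta cells, stood at 14.2, 12.7 and 11.5 FPKM untreated and at 11.8, 9.09 and 13.8 FPKM with uric acid. Foxo3 (ENSRNOG00000000299), a close relative with shared targets, stood at 4.92, 5.12 and 3.93 FPKM untreated and at 6.25, 4.04 and 8.15 FPKM with uric acid. For both genes uric acid library 2 was the lowest and uric acid library 3 the highest of its group, and the groups overlapped. The log2 fold changes were -0.15 ± 0.14 for Foxo1 (edgeR adjusted p = 0.551; 95% interval -0.47 to 0.18) and 0.40 ± 0.22 for Foxo3 (adjusted p = 0.295; 95% interval -0.10 to 0.91). Without uric acid library 2, which has the fewest counts, Foxo3 passed at 0.63 (edgeR adjusted p = 0.043). It did not pass when any other single library was left out. Without uric acid library 3 its log2 fold change was 0.15 (edgeR adjusted p = 0.647).

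In order of mean level over the 6 libraries, the 10 genes ran Akt1, Irs2, Akt2, Foxo1, Igf1r, Pik3r1, Foxo3, Pik3r3, Irs1 and Insr. The ranges of Foxo1 and Igf1r, of Igf1r and Pik3r1, of Pik3r1 and Foxo3, and of Irs1 and Insr overlapped. The other neighbours were apart in every library.

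The other FOXO factors changed the make-up of the family. Foxo4, which binds the same core motif, rose from 8.18 ± 0.17 to 12.3 ± 0.759 FPKM (n = 3 per group), a log2 fold change of 0.59 ± 0.08 (edgeR adjusted p = 0.00362). The libraries stood at 8.37, 8.07 and 8.09 FPKM untreated and 11.9, 11.9 and 13.2 FPKM with uric acid, well apart. It passed in each of the 17 alternatives, at an adjusted p of at most 0.0347. It overlaps an unnamed feature on the same strand, and reads of the pair were not separated here. Foxo6, the most abundant of the family here, stood at 31.9 ± 2.3 and 26.3 ± 2.67 FPKM (-0.28 ± 0.10, adjusted p = 0.105). Foxo4 held 13.8, 14.6 and 14.2% of the family's FPKM in the untreated and 21.7, 24 and 20.5% in the uric acid libraries. The summed level of all 4 factors was 57.6 ± 2.81 and 56.3 ± 7.58 FPKM, with overlapping groups. Among the 18 tested regulators and relatives of FOXO, 1 rose and 1 fell (5.56% each, against 4.99 and 2.99% of all tested features). The fall was in Ywhah, a 14-3-3 protein gene of the kind that holds phosphorylated FOXO in the cytoplasm, at -0.25 ± 0.06 (edgeR adjusted p = 0.049). Leaving out untreated library 1 (0.0657), 2 (0.215) or 3 (0.118), or uric acid library 1 (0.181) or 3 (0.0911), ended that call, as did limma (0.053 at a pseudocount of 1).

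**Figure D3:**
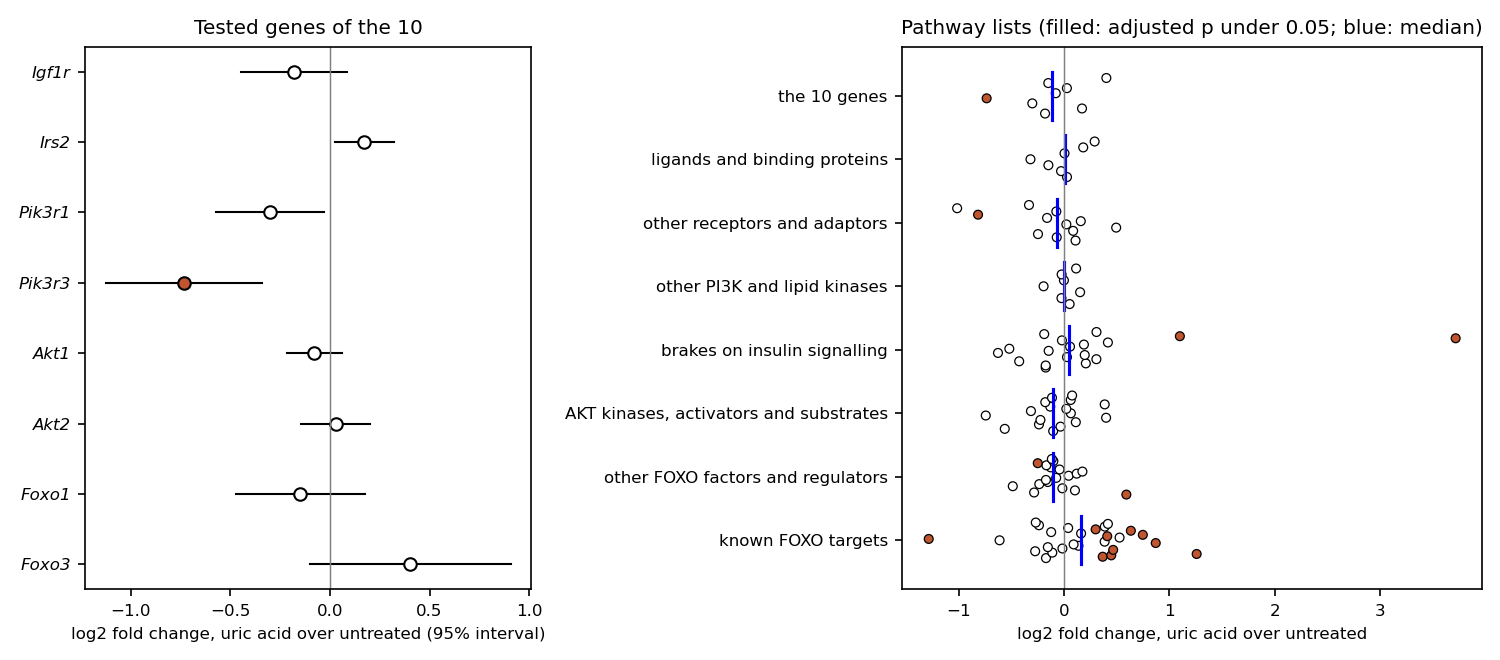
Log2 fold change, uric acid over untreated (horizontal axes), for the 8 tested genes of the 10 with 95% intervals (left) and for each tested gene of the 8 pathway lists (right); filled points passed an adjusted p of 0.05 and blue lines are list medians. Pik3r3 at -0.73 is the 1 filled point on the left, and on the right the brakes hold Trib3 at 3.72 and the FOXO targets hold 10 filled points.

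Upstream of the receptors nothing passed. Of 12 ligand and binding-protein genes 7 were tested and none was called at the adjusted threshold in edgeR or DESeq2. In edgeR 1 higher and 1 lower reached an unadjusted p under 0.05, against 13.7 and 12.0% of all tested features. Ins1 had a log2 fold change of 0.03 and Ins2 of -0.03, with signs that turned when single libraries were left out. Igf2, the fetal growth factor gene, stood at 87.6 ± 1.11 and 79.2 ± 6.57 FPKM (-0.15, adjusted p = 0.227), so Igf2 was plentiful in both groups. Igf1 had a mean below 1 FPKM. Of 12 tested receptors and adaptors outside the 10, 1 fell (8.33%, against 2.99% of all tested features). It was Dok4, a docking protein gene of the IRS-related kind, from 4.27 ± 0.338 to 2.42 ± 0.329 FPKM (-0.81 ± 0.16, edgeR adjusted p = 0.0196). Leaving out untreated library 1 (0.0594), 2 (0.102) or 3 (0.0528), or uric acid library 1 (0.0874), ended the Dok4 call. Without uric acid library 3 there were 3 of the list lower, where 466 of all 12460 tested features were called lower. Igf2r, which clears IGF2, had -0.07 (adjusted p = 0.705). Of 7 tested PI3K and lipid kinase genes outside the 10, none was called in edgeR or DESeq2 (unadjusted p under 0.05 for 0 higher and 0 lower), and Pik3ca, a catalytic subunit gene, stood at 0.15 (adjusted p = 0.34).

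Of 18 tested brakes on the chain, 2 rose (11.1%, against 4.99% of all tested features) and none fell at the adjusted threshold, with a median of 0.04. An unadjusted p under 0.05 in edgeR was reached by 4 higher and 2 lower, against 13.7 and 12.0% of all tested features. DESeq2 called 3 higher and 1 lower, where it called 972 higher and 793 lower of 11974 features. Trib3, a pseudokinase known to bind AKT and also a target of the stress factor ATF4, stood at 6.37, 5.75 and 6.98 FPKM untreated and 79.8, 117 and 55.3 FPKM with uric acid. Its log2 fold change was 3.72 ± 0.25 (edgeR adjusted p = 0.000119). Ddit4, an mTORC1 inhibitor that both FOXO and ATF4 are known to drive, rose by 1.10 ± 0.12 (adjusted p = 0.00125). Without uric acid library 3 the list had 3 higher and 1 lower, where 707 and 466 of all 12460 tested features were called higher and lower.

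Among AKT activators and substrates none of 17 tested passed in edgeR. There 2 higher and 2 lower reached an unadjusted p under 0.05, against 13.7 and 12.0% of all tested features. DESeq2 called 2 higher and 1 lower, where it called 972 higher and 793 lower of 11974 features. Pdpk1, the kinase that switches AKT on, stood at 15.5, 14 and 9.58 FPKM untreated and 8.23, 5.84 and 12.4 FPKM with uric acid. Uric acid library 3 lay among the untreated libraries. The log2 fold change of Pdpk1 was -0.56 ± 0.26 (edgeR adjusted p = 0.21), and without uric acid library 3 it was -0.88 and passed (0.0395).

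Genes known as FOXO targets included rises in some arrest, autophagy and death genes, while others of these kinds did not pass. Of 40 listed, 36 had a row and 27 were tested. Of these 9 rose (33.3%, against 4.99% of all tested features) and 1 fell (3.7%, against 2.99%). The median log2 fold change was 0.16, and 17 of the 27 were above 0. In edgeR 12 higher and 4 lower reached an unadjusted p under 0.05, against 13.7 and 12.0% of all tested features. DESeq2 called 12 higher and 2 lower, where it called 972 higher and 793 lower of 11974 features. The list was drawn from general knowledge with earlier results in view, and several of its genes, such as Gadd45a, also answer to other stress factors. Ccng2, a cyclin gene tied to arrest, stood at 4.82, 6.43 and 6.18 FPKM untreated and 12.2, 14.8 and 14.7 FPKM with uric acid (1.26 ± 0.14; edgeR adjusted p = 0.00135). Gadd45a, a growth-arrest gene, rose from 23 ± 2.8 to 42.1 ± 6.63 FPKM (0.87 ± 0.13; adjusted p = 0.00654). The autophagy genes Gabarapl1 and Ulk1 rose by 0.75 ± 0.08 and 0.64 ± 0.09 on the log2 scale. The arrest gene Cdkn1a (-0.17), the autophagy genes Map1lc3b (0.16) and Bnip3 (-0.12), and the death gene Tnfsf10 (-0.01) did not pass. Those genes were named after their values were seen.

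Bcl2l11, which encodes the death-promoting protein BIM and whose upstream stretch with GTAAACA is printed above, stood at 4.82, 4.82 and 5.04 FPKM untreated and 7.07, 6.46 and 6.8 FPKM with uric acid. The groups were clearly apart, with a log2 fold change of 0.47 ± 0.08 (edgeR adjusted p = 0.00988). The call was lost without untreated library 2 (0.0687) or uric acid library 1 (0.0598). The motif was present in the windows of 1 of the 9 targets that rose. It was in 1 of 29 listed targets with a row and a single promoter entry, a share of 3.45% against 3.21% of all windows. Klf2, a quiescence factor that FOXO is known to activate, went the other way, from 16.5 ± 3.71 to 6.76 ± 0.716 FPKM (-1.28 ± 0.18; adjusted p = 0.0039). Named after their values were seen, the remaining 4 that rose were the cell-cycle inhibitor Cdkn1b (0.37), the pocket protein gene Rbl2 (0.45), the coregulator Cited2 (0.41) and the autophagy gene Atg12 (0.30).

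**Figure D4:**
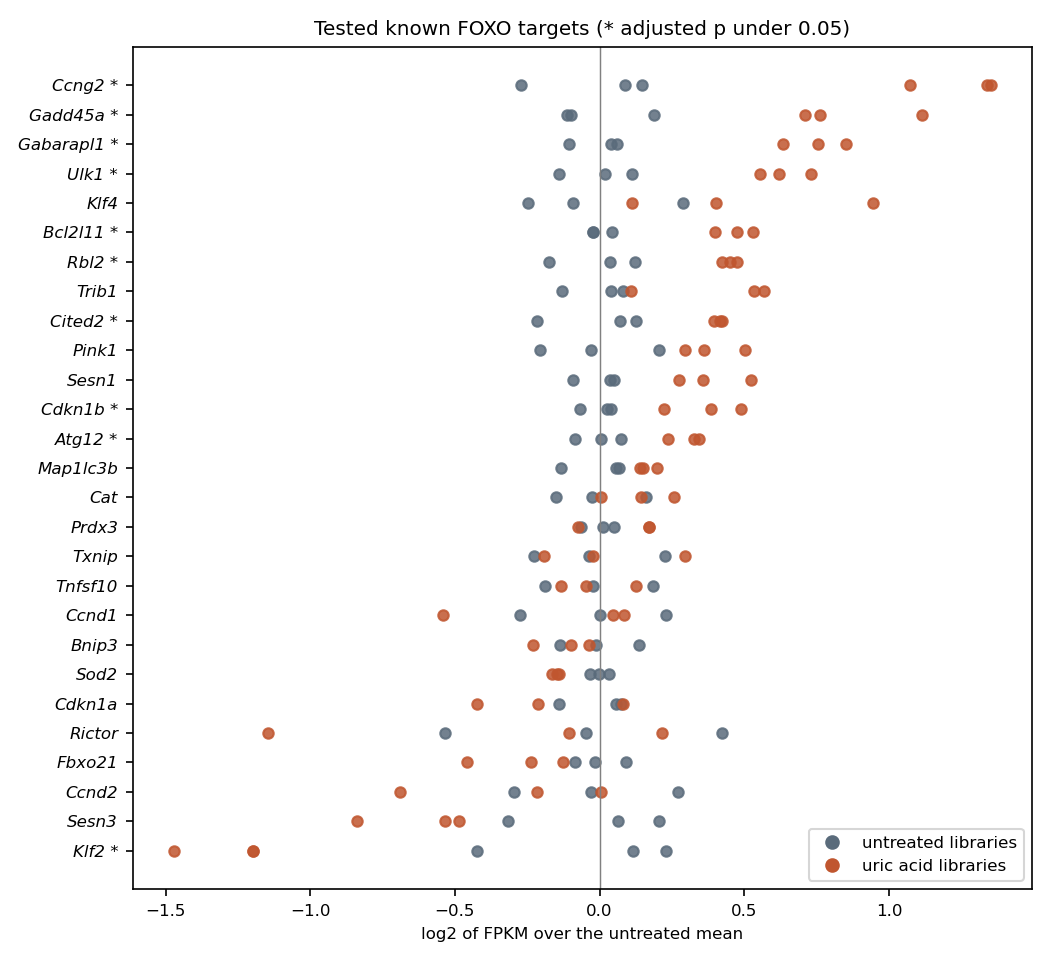
Log2 of FPKM over the untreated mean (horizontal axis) for the 27 tested FOXO targets, 1 point per library, ordered by fold change; an asterisk marks an adjusted p under 0.05. Ccng2 at the top and Klf2 at the bottom show uric acid libraries beyond all untreated ones, and most unmarked genes overlap.

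Leaving out untreated library 1, 2 or 3 left 5, 4 or 5 FOXO targets that rose, and leaving out uric acid library 1 left 4. Over all 12460 tested features, 254, 165, 316 and 224 were called higher in the same fits, against 622 with all 6 libraries. Leaving out uric acid library 2 or 3 gave 9 targets, with 490 and 707 over all tested features. Ccng2, Gadd45a, Gabarapl1 and Ulk1 passed in all 6 of these fits. Cdkn1b, Rbl2 and Cited2 passed in 2 of the 6 and Atg12 in 1 of the 6. Insr, itself a known FOXO target, lay below the filter and was not tested in these fits. Irs2, another known target, was tested and did not pass in the main fit (edgeR adjusted p = 0.143). Among the other settings Irs2 passed only with libraries centred by transcript length (edgeR adjusted p = 0.0323).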

How the data were processed

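RNA of 6 INS-1E libraries was compared, uric acid against untreated, with groups taken from the sample titles. Per the labels' protocols, oligo-dT-selected RNA was sequenced as paired reads of 150 bases from dUTP-marked libraries. Tools listed without roles, per the submitters' processing notes, are StringTie 1.3.4d, HISAT2 2.0.4, cutadapt 1.9, edgeR and DESeq2; the build and the strand used in counting are not given in the sources used here. The deposited FPKM are the authors' values, scaled to transcript length and library. The deposited estimated counts are not scaled, and are close to aligned bases over 75. They were taken as whole numbers.

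The 12460 of 19289 features averaging 1 FPKM or more were tested with edgeR 4.0.16 (quasi-likelihood F test, TMM factors 0.992 to 1.01, R 4.3.3), two-sided, with Benjamini-Hochberg adjustment over all of them and a threshold of 0.05. Every adjusted p without another tool named is from this fit. Intervals cover the spread between libraries. An exact permutation test of 3 against 3 cannot go below p = 0.1, so none was run.

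The 10 genes and the 8 pathway lists (141 genes, 135 with a row, 1 through an older symbol) were chosen with earlier results of these data known, and support nothing independently. Lists are given by counts and medians. Values of some listed genes are not reported here. Named genes were the 10, up to 6 called genes per list by smallest p, and a set of 12 named whatever their result. Of that set 1, Irs4, was not analysed here. The 3 nearest in pattern to the member with the smallest p were named too. Insrr, Foxo6, Igf1 and the cell markers are named outside these rules. Others are marked as chosen after their values were seen. Of the 135 genes 17 overlap another listed feature, 1 of them among the 10 (Igf1r, a 5S rRNA on the other strand). No library was identical to another. Other settings tried numbered 17, 1 of them added after the data were seen. limma 3.58.1 was run on log2(FPKM + 1) and log2(FPKM + 0.1), and DESeq2 1.42.0 on the counts.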

Additional observations from a re-analysis of the deposited data

How the results depend on the processing

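With 16 other settings and 1 more added after the data were seen, 8 of 542 gene values changed sign, 48 lost a call and 3 gained one; the cause was not tested unless fewer features or libraries entered. The sign changes came from leaving out single libraries, over which log2 fold changes ranged from -0.0068 to 0.0645 for Akt2 (negative with untreated library 2 or uric acid library 3 left out), -0.0542 to 0.127 for Ins1 (untreated 1, uric acid 2), -0.0912 to 0.0502 for Ins2 (untreated 3, uric acid 3) and -0.146 to 0.0129 for Igf2r (untreated 1, uric acid 2).

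The number of the 10 genes called was 1; it was 0 with a mean FPKM of at least 5, which removes Pik3r3 and Dok4, 0 with the replicate block and 2 with libraries centred within 5 bins of transcript length. Called ligands and binding proteins numbered 1 with that centring. Called receptors and adaptors numbered 0 at the higher filter, 4 with DESeq2, 0 with the replicate block and 2 with the centring. With a mean FPKM above 0 as the only filter, 1 PI3K gene (Pik3r5) and 1 FOXO regulator were called. With DESeq2 4 brakes and 3 AKT genes were called, and with the centring 1 AKT gene. FOXO regulators numbered 1 with either form of limma and with the replicate block, and FOXO targets 5 with the block. Over all features 994 were called in the main fit, 1765 with DESeq2, 322 with the replicate block and 1460 with the centring. Shared replicate numbers were not taken as pairing in the main fit. Deviations of same-numbered libraries correlated at 0.0684, -0.0492 and -0.19, and not every library correlated best with its own number. With 3 libraries per group these values cannot decide whether same-numbered libraries were paired. With 1 library left out, calls ranged from 0 to 1 among the 10 genes, 0 to 1 for ligands, 0 to 3 for receptors and adaptors, 0 to 0 for PI3K genes, 2 to 4 for brakes, 0 to 1 for AKT genes, 1 to 2 for FOXO regulators, 5 to 10 for FOXO targets and 231 to 1173 over all features. Insr, Irs1 and Pik3r3 each had at most 469 counts in every library, and the part of depth in their results was not tested.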

Other observations

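Some genes of the pathway lay below the filter and were read only in the fit with a mean FPKM above 0, where 3.81% of 19289 features were called; they were chosen after their values were seen. Ppargc1a, a coactivator gene known as a FOXO target and partner, stood at 0.627, 0.609 and 0.446 FPKM untreated and 1.3, 0.896 and 1.16 FPKM with uric acid (log2 fold change 0.99 ± 0.23; edgeR adjusted p = 0.0494). Bcl6, a repressor gene known as a FOXO target, had counts of 16 to 33 untreated and 50 to 79 with uric acid (1.67 ± 0.38; adjusted p = 0.0428). Fbxo32, a ubiquitin ligase gene driven by FOXO in muscle, had counts of 12 to 62 and 68 to 116 and did not pass (1.89 ± 0.48, edgeR adjusted p = 0.0631). The 9 FOXO targets below the filter also included Igfbp1 (0.04, edgeR adjusted p = 0.973), G6pc1 (0.20, 0.967), Faslg (-0.80, 0.611) and Klf15 (-0.59, 0.908). None of these passed. Pik3ip1 (1.01, 0.16) and Eif4ebp1 (6.19, 0.119) did not pass either. Pik3r5, a regulatory subunit of the PI3K that G proteins activate, had counts of 20 to 39 in the untreated libraries and was at 0 in all 3 uric acid libraries. A full read pair adds up to 4 of these counts, so few read pairs lie behind them. The setting that divided counts by 4 used only features that reached the filter and did not cover these genes.

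The libraries also differed by transcript length in a way the groups do not follow. In the longest 20% (2492 tested features) the median log2 deviation was 0.09, 0.01 and -0.06 for untreated replicates 1, 2 and 3 and 0.00, -0.11 and 0.07 for the uric acid replicates. In the shortest 20% it was -0.07, 0.00 and 0.07, and -0.01, 0.10 and -0.05. Igf1r, Irs2 and Pik3r1 are in the longest 20%, and their part in this pattern was not tested.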
